A study of Mus musculus with 8 samples.

Results

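The livers of AIM-/- mice (AIM-KO) and of AIM+/+ mice (WT) were compared after 12 weeks of high-fat diet. Both were on a C57Bl/6 background, and AIM is the product of the Cd5l gene. The comparison is the array titled for the knockout at 12 weeks against the array titled for the wild type at 12 weeks, 2 of the 8 arrays of the series. Each array was hybridised with total liver RNA of its group, labelled Cy3. The other 6 arrays hold AIM-KO and WT livers, 1 array each, on normal chow (0 weeks) and after 6 and 20 weeks of high-fat diet. Genes entered the comparison if the AIM-KO or the WT array of 12 weeks had them well above background (a mark set for each spot at scanning), which held for 14349 of 27592 genes on the array. With 1 array per group there is no replicate, no error and no test at 12 weeks, and 2-fold was taken as the size that counts as a call. Differences describe these 2 arrays. The labels do not say how many animals each array stands for, and a liver below means the RNA on 1 array.

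AIM (apoptosis inhibitor of macrophage, also called CD5L) is a scavenger receptor cysteine-rich protein that tissue macrophages secrete into the blood. In the liver its source is the Kupffer cell, the resident macrophage of the sinusoids. In mice on a high-fat diet it has been linked to lipid breakdown in fat cells and to the removal of hepatocellular carcinoma cells, on whose surface it gathers and engages complement. A liver on such a diet passes through fat storage, the arrival of new macrophages, cell death and regeneration, so lists of genes for each of those steps were read on the 12-week pair.

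Both 12-week arrays had almost equal overall signal. The 75th percentile of the processed signal was 282 in AIM-KO and 280 in WT, and 19254 and 19234 probes were well above background. Signals below were scaled so that every array has the same 75th percentile, 281. All AIM-KO arrays of the series were on slide 2 and all WT arrays on slide 1, so genotype and slide cannot be told apart. Y-linked Eif2s3y was at 1485 in AIM-KO and 1331 in WT at 12 weeks, and Xist, the RNA of the silenced X, was at 6.27 (not well above background) in AIM-KO and 66.3 in WT. On the 20-week pair Eif2s3y was at 4.59 in AIM-KO and 5.76 in WT, with Xist at 755 and 797, so the range of the other 6 arrays includes a pair without Y-linked signal.

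Most genes had similar signals in both livers. The median difference, AIM-KO minus WT on the log2 scale, was -0.00 over 14349 genes, and 86.0% of genes lay within 1.5-fold. At least 2-fold apart were 1024 genes, 7.14% of those compared, of which 560 were higher in AIM-KO (3.9%) and 464 lower (3.23%). Of the 13070 genes well above background on both arrays, 277 were at least 2-fold apart (2.12%), 172 higher (1.32%) and 105 lower (0.803%). The same count among genes above background on both arrays of a pair was 539 on chow, 478 at 6 weeks and 299 at 20 weeks. With a normexp background correction, whose offset raises low signals, 104 of the 277 genes stayed at least 2-fold apart, 235 stayed at least 1.5-fold apart, and none had the opposite sign. With it, the genes described below that fall under 2-fold are Akr1c18, Anxa13, Ccnb1, Cd24a, Cd3d, Dscc1, Dtl, Egr2, Exo1, Gadd45b, Gins3, Ifit1, Il17d, Myc, Scd2, Socs2, Sult5a1, Tcf7 and Timd4.

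The remaining calls rest on 1 array. In 388 genes called higher and 359 called lower, only the brighter array was well above background. Of these, 186 and 172 were not well above background on any of the other 6 arrays. Where such a gene had further probes, another probe was at least 2-fold apart in the same direction for 1 of 39 higher and 1 of 38 lower genes, and the further probes were all not well above background for 38 and 37. Genes with 2 or more probes above background on both arrays agreed better: the range between probes of a gene had a median of 0.21 on the log2 scale over 3991 genes, and in 32 of 37 called genes every probe had the same sign. The text below therefore leads with genes above background on both arrays and marks the others.

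**Figure D1:**
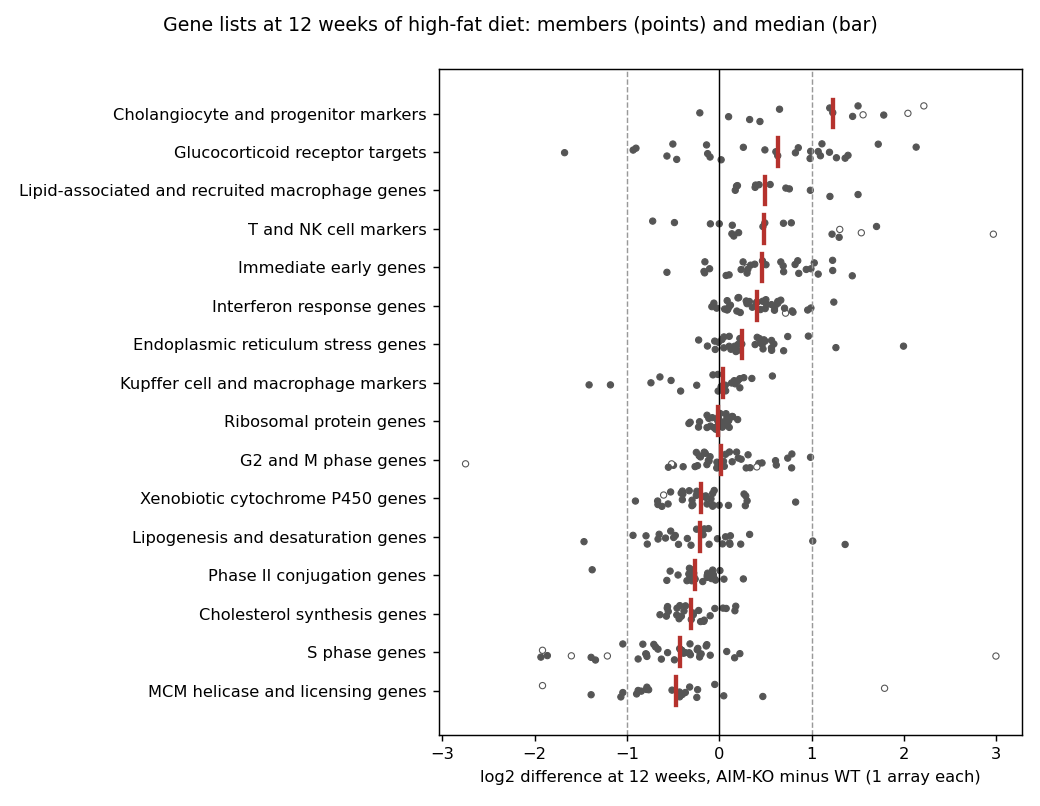
Each point is a gene of the list named at the left, placed by its log2 difference at 12 weeks (AIM-KO minus WT, 1 array each); filled points were well above background on both arrays and open points on 1. Red bars are list medians, dashed lines mark 2-fold; the median is 1.23 for bile duct and progenitor markers and -0.47 for MCM and licensing genes, with ribosomal protein genes at -0.01.

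The targeted gene was all but missing in the knockout. Cd5l had a signal of 171 in AIM-KO and 30285 in WT, a log2 difference of -7.47 (177-fold lower). Its probe lies on chromosome 3 (mm8, chr3:87456828-87456887), and whether that stretch is part of the deleted sequence is not stated in the labels. The AIM-KO signal was still well above background. The WT signal was the highest of the 8 arrays, against 11659, 23991 and 21002 in WT at 0, 6 and 20 weeks. Only 4 other genes among the 277 differed at least 2-fold in the same direction at all 4 times: Asic5 and Wars2 were higher, Lrmda and 4933406C10Rik lower. Asic5, an ion channel of the acid-sensing family that also lies on chromosome 3, had 666 in AIM-KO and 72 in WT at 12 weeks, and its differences were 3.53, 3.50, 3.21 and 2.93 at 0, 6, 12 and 20 weeks. Wars2, the mitochondrial tryptophan tRNA synthetase on the same chromosome, had 204 in AIM-KO and 45.3 in WT (2.17). Of its further 3 probes, 1 gave 0.92 and the others were near background in both livers. Weeks are not replicates of 12 weeks, so this agreement is a description of 4 pairs of arrays.

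Macrophage genes did not all lie on the same side. Of 24 general and Kupffer cell markers, 14 were higher and 10 lower in AIM-KO, with a median of 0.04, and 2 were at least 2-fold lower. Those 2 are Marco, a scavenger receptor, and Timd4, a phosphatidylserine receptor of long-lived resident macrophages. Marco had 1445 in AIM-KO and 3844 in WT (-1.41), and ranged from 800 through a median of 3347 to 5782 on the other 6 arrays. Timd4 had 74.6 in AIM-KO and 169 in WT (-1.18), and ranged from 42.1 through 175 to 263 elsewhere. For both, only the AIM-KO array of 20 weeks was lower than the AIM-KO array of 12 weeks. Further resident markers were lower by less than 2-fold: Cd163, the haemoglobin scavenger, by -0.74, the ficolin Fcna by -0.64 and the complement receptor Vsig4 by -0.52. Clec4f, a lectin of mouse Kupffer cells, was at 8209 in AIM-KO and 9734 in WT, and the C1q chains C1qa, C1qb and C1qc were 0.22, 0.17 and 0.22 higher. The 14 higher members of the list reached at most 0.57, so the list as a whole had no direction. In bulk liver, fewer cells of a type and less RNA per cell cannot be told apart.

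Genes of recruited and lipid-associated macrophages lay on the higher side in AIM-KO. All 12 list members that were above background, of 15 on the array, were higher in AIM-KO, with a median of 0.49, and in all 12 the AIM-KO array of 12 weeks was above the other 6 arrays. Over all genes that was so for 20.4%. Spp1, the secreted phosphoprotein osteopontin, had 27029 in AIM-KO and 9547 in WT (2.83-fold higher), against 456 to 11729 with a median of 1364 on the other 6 arrays. Cd63, a tetraspanin of lysosomes, had 3694 in AIM-KO and 1611 in WT (1.20), against 250 to 1379. The WT array of 12 weeks was itself above all 6 others for Cd63 and for 8 of the 12 genes. Below 2-fold were Itgax, the integrin chain CD11c (544 in AIM-KO and 275 in WT, 0.98), Trem2, a lipid-sensing receptor (1792 and 1088, 0.72), Gpnmb (180 and 123, 0.55) and the galectin Lgals3 (3183 and 2364, 0.43). The 2 probes of Trem2 gave 0.72 and 0.69. Spp1 is also made by bile duct cells, of whose markers 12 of 13 were higher, and their part in the Spp1 value was not tested. At 20 weeks the median of the same genes was -0.54, and at 0 and 6 weeks it was 0.35 and 0.78.

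**Figure D2:**
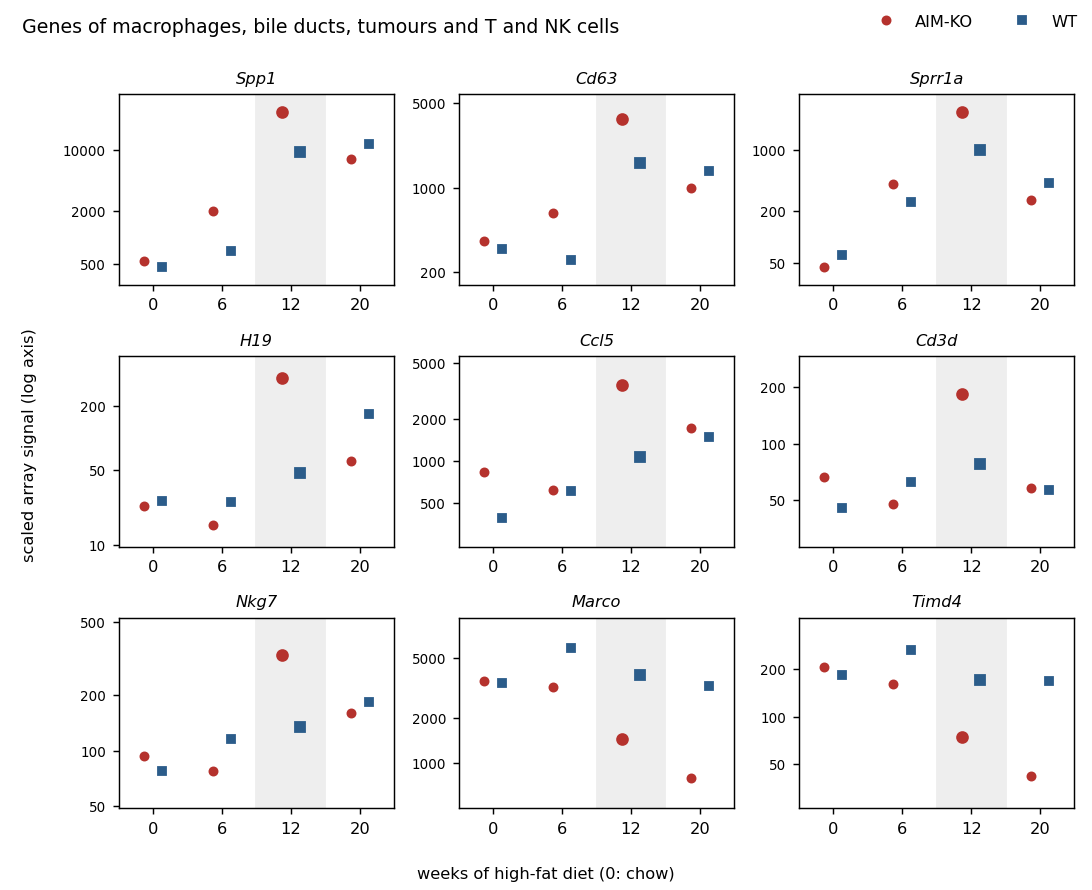
Scaled signal (log axis) of 9 genes against weeks of high-fat diet, AIM-KO as red circles left of WT as blue squares, 1 array per point, 12 weeks shaded. Spp1, Cd63, Sprr1a, H19, Ccl5, Cd3d and Nkg7 have their highest point in AIM-KO at 12 weeks, while Marco and Timd4 are lower in AIM-KO than in WT at 12 weeks and lower again in AIM-KO at 20 weeks.

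Markers of bile duct and progenitor cells had a median of 1.23 over 13 of 21 genes, and of 0.44 over all 21 with no filter on dim probes. Of the 13, 12 were higher and 8 at least 2-fold, 5 of these above background on both arrays. Over all genes compared, 3.9% were at least 2-fold higher, and 1.32% of those above background on both arrays. Over the 10 members above background on both, the median was 0.92, and with the normexp correction over all 13 it was 0.67. The annexin Anxa13 had 147 in AIM-KO and 42.7 in WT (1.78), Sprr1a, a small proline-rich protein of epithelia, had 2674 and 984 (1.44), and Cd24a, a surface glycoprotein of progenitors, had 147 and 64.4 (1.19). The duct keratins Krt19 and Krt7 and the tight junction claudin Cldn7 were above background in AIM-KO alone: they were at least 2.89-fold, at least 3.51-fold and at least 2.8-fold higher. The AIM-KO array of 12 weeks was above the other 6 for 4 of the 13, against 20.4% of all genes. Krt19, Krt7, Anxa13, Cldn7 and Cd24a all had higher signals in WT at 20 weeks (276, 281, 302, 264 and 285). Epcam, a surface marker of ducts, was not well above background in either liver, and the duct transcription factor Sox9 differed by 0.33. Krt8 and Krt18, keratins of hepatocytes as well as ducts, were 0.44 and 0.65 higher, and both were higher in AIM-KO at 12 weeks than on any other array.

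The list of hepatocellular carcinoma and fetal liver genes was higher in AIM-KO for 26 of 32 members, with a median of 0.48. Of the 32, 7 were at least 2-fold higher and 1 at least 2-fold lower, against 3.9% and 3.23% of all genes compared. H19, an imprinted noncoding RNA of fetal liver, had 363 in AIM-KO and 47.3 in WT (2.94), against 15.4 to 166 elsewhere. A second H19 probe gave 170 in AIM-KO and 108 in WT, a difference of 0.66, so the 2 probes share a direction and not a size. Akr1c18, a steroid dehydrogenase, had 111 in AIM-KO and 31.7 in WT (1.81, and 0.77 with normexp), against 6.96 to 62.8 elsewhere. Just under 2-fold were Ly6d, a surface protein (36435 in AIM-KO and 18719 in WT, 0.96), and the Golgi protein Golm1 (749 and 390, 0.94). The AIM-KO array of 12 weeks was above the other 6 for 20 of the 32 genes, and the WT array of 12 weeks for 15. Over all genes that was so for 20.4% and 15.5%. The fetal marker Afp had 405 in AIM-KO and 292 in WT, with a higher value of 450 in AIM-KO on chow, and all 8 arrays left Gpc3 near background. Igf2bp2, an RNA-binding protein of fetal tissues that is outside the list, had 204 in AIM-KO and 51.6 in WT (1.98), against 19.4 to 47 elsewhere.

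T cell and natural killer cell genes were higher in AIM-KO for 14 of 18 members, with 6 at least 2-fold. Their median was 0.48, and 0.21 over the 15 members above background on both arrays. Ccl5, a chemokine of activated T and NK cells, had 3489 in AIM-KO and 1073 in WT (1.70), against 392 to 1728 with a median of 728 elsewhere. Its second probe gave 1.73. Nkg7, a protein of cytotoxic granules, had 328 in AIM-KO and 134 in WT (1.30, second probe 1.35), and Cd3d, a chain of the T cell receptor complex, had 183 in AIM-KO and 78.5 in WT (1.22). In AIM-KO all 3 were above every other array. The granzymes Gzma and Gzmb and the co-receptor Cd8a were above background in AIM-KO alone at 12 weeks, at least 2.47-fold, at least 2.21-fold and at least 2.06-fold higher. B and plasma cell genes were lower for 9 of 11 members with a median of -0.31, and neutrophil genes had a median of -0.15 over 5 members.

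Interferon response genes were slightly and evenly higher. Of 37 members above background, 34 were higher and 3 lower, with a median of 0.41, and the medians at 0, 6 and 20 weeks were 0.00, -0.14 and -0.09. Only Ifit1, an antiviral RNA-binding protein, passed 2-fold, with 349 in AIM-KO and 148 in WT (1.24). Ifi44 (0.99), the oligoadenylate synthetase Oas2 (0.96), Rsad2 (0.80) and the T cell attractant Cxcl9 (0.79) followed. Oas2 had 375 in AIM-KO and 193 in WT, and 377 in AIM-KO at 20 weeks, so the AIM-KO level was within the range of the series there. Chemokines and cytokines had a median of 0.37 over 23 members, 19 of them higher, and genes of MHC class II and peptide loading a median of 0.15, 16 of 18 higher and none 2-fold.

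Genes of DNA replication were mostly lower in AIM-KO, and genes of mitosis were higher as often as lower. The general cell cycle list had a median of -0.12, with 15 higher and 19 lower. After these values were seen it was split by published single-cell lists: S phase genes were lower for 35 of 39 members (median -0.43, 8 at least 2-fold lower and 1 higher), and G2 and M phase genes were higher for 20 and lower for 20 (median 0.02, none at least 2-fold higher and 1 at least 2-fold lower). The 6 subunits of the MCM2-7 helicase, which unwinds DNA at the replication fork, were all lower, by -0.51 to -1.39. Mcm5 had 485 in AIM-KO and 1270 in WT (-1.39), against 120 to 491 with a median of 276 on the other 6 arrays. Mcm6 had 3030 in AIM-KO and 6256 in WT (-1.05), against 798 to 2444, and Mcm3 had 717 and 1336 (-0.90, second probe -1.21), against 218 to 531. The WT liver of 12 weeks was thus the highest of the 8 for all 6 subunits, and the AIM-KO liver was next, above the other 6 arrays, for 5 of the 6. The 6 subunits were also all lower in AIM-KO on chow, by -0.19 to -0.57, and at 6 weeks, by -0.01 to -0.95, and lay between -0.13 and 0.24 at 20 weeks.

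Other replication genes were lower too. Cdt1, the factor that loads MCM on DNA, had 944 in AIM-KO and 1697 in WT (-0.85), Gins3 of the replicative helicase 40.6 and 85.1 (-1.07), and the nuclease Exo1 40.4 and 103 (-1.34). Dtl, which marks Cdt1 for destruction, and the clamp loader subunit Dscc1 were 1.86 and 1.93 lower on the log2 scale, near background in AIM-KO, and their further probes were not well above background. Against that direction, the centromere protein Cenpu and the origin recognition subunit Orc1 were above background in AIM-KO alone, at least 3.32-fold and at least 1.96-fold higher. Of the G2 and M phase list, 20 members were higher and 20 lower, the lower ones including Ckap2 (-0.52) and Cdk1 (-0.50). The mitosis genes with higher values in AIM-KO were mostly under 2-fold. Mki67, the Ki-67 antigen, had 651 in AIM-KO and 378 in WT (0.78, second probe 0.28), against 25.7 to 283 elsewhere. Plk1, a kinase of mitotic entry, had 336 in AIM-KO and 171 in WT (0.98), against 21.9 to 122, and Ccnb2, cyclin B2, had 636 and 381 (0.74), against 125 to 198. Ccnb1, cyclin B1, had 80.8 in AIM-KO and 37.8 in WT (1.10). For Mki67, Plk1 and Ccnb2 both 12-week arrays were above the other 6. The motor protein Kif11, above background in WT alone, was at least 2.41-fold lower, and its 2 further probes were not well above background.

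**Figure D3:**
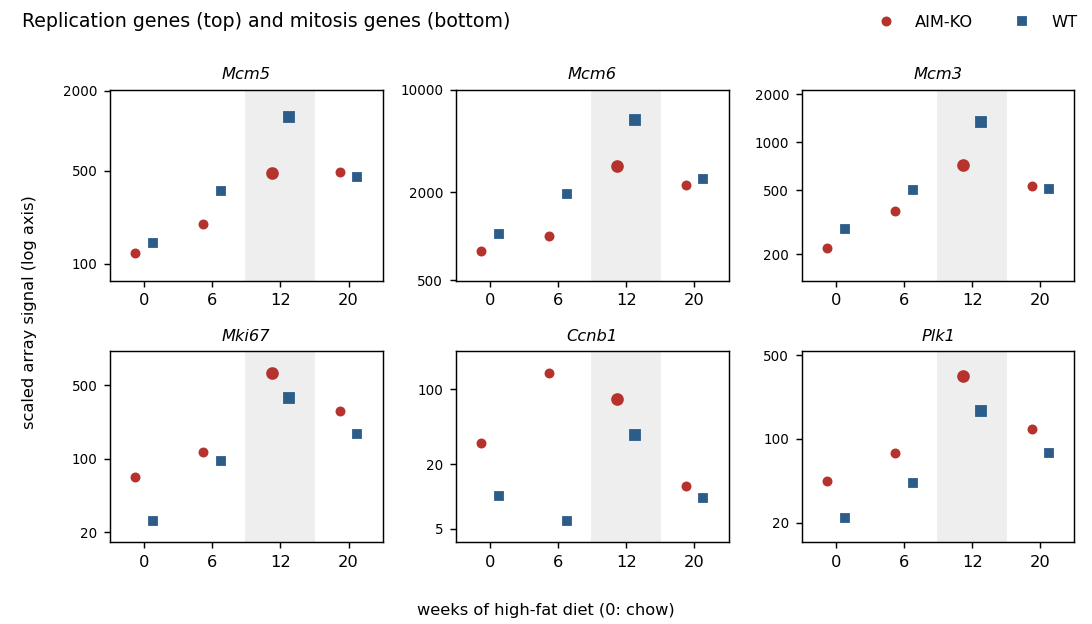
Scaled signal (log axis) of 3 replication genes (top row) and 3 mitosis genes (bottom row) against weeks of high-fat diet, AIM-KO as red circles left of WT as blue squares, 1 array per point, 12 weeks shaded. At 12 weeks the WT square is highest for Mcm5, Mcm6 and Mcm3, and the AIM-KO circle is highest for Mki67 and Plk1. All 3 mitosis genes shown were higher in AIM-KO than in WT at 12 weeks, while the G2 and M phase list had 20 members higher and 20 lower.

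Promoters of 5 of these genes are shown to set the letters of each control element beside the direction of the gene. E2F factors switch on replication genes at the start of S phase through sites such as TTTCCCGC and TTTGGCGC, and the CHR element TTTGAA is a site of the complex that times mitosis genes. Promoters are RefSeq's on GRCm38.p6, 250 bases before to 50 after the start, written along the gene with the element in capitals, on either strand. For Mcm5, Mcm6 and Mcm3 the capitals mark E2F sites, and for Mki67 and Ccnb2 CHR elements.
Mcm5, chr8:75109259-75109558, plus strand: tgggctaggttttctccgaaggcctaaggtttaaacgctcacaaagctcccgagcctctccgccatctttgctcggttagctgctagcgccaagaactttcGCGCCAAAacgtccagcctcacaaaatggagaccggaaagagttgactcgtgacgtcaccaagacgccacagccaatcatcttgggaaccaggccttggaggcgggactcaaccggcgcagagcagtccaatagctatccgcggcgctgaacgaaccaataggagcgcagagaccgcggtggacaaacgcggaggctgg
Mcm6, chr1:128359656-128359955, minus strand: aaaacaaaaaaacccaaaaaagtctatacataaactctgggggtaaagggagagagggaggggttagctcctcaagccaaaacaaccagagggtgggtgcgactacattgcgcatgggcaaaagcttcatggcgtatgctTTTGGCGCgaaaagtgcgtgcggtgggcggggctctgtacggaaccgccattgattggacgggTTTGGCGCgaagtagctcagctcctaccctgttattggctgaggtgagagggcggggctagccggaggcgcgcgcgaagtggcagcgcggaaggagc
Mcm3, chr1:20820263-20820562, minus strand: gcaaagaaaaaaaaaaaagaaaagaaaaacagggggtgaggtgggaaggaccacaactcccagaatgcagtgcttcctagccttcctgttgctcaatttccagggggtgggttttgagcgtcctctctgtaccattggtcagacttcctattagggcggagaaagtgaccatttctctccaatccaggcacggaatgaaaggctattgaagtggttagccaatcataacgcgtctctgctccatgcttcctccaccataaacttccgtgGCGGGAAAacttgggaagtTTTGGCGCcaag
Mki67, chr7:135716330-135716629, minus strand: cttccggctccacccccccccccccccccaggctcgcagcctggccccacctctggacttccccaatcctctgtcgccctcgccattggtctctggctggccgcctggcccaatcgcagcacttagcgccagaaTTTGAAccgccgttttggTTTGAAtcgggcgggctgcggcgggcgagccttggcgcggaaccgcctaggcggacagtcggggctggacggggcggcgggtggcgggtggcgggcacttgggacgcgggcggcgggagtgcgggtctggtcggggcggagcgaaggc
Ccnb2, chr9:70421505-70421804, minus strand: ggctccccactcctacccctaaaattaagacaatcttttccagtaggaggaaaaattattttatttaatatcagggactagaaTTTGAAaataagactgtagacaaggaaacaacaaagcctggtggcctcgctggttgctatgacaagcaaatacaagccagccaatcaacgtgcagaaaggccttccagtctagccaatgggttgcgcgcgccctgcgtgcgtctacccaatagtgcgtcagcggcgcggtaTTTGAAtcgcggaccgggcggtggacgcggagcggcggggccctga

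An E2F site of these letters, searched on both strands, was in the promoter of 9 of 18 MCM and licensing genes with a promoter in the table and of 10 of 31 S phase genes, against 2 of 47 G2 and M phase genes and 1.8% of all 27025 genes. The CHR letters were in 33 of 47 G2 and M phase genes, in 6 of 31 S phase genes and in 20.2% of all genes. Of the 25 such G2 and M phase genes compared at 12 weeks, 11 were higher in AIM-KO and 14 lower. The E2F form TTTGGCGC and the CHR element share their first 4 letters. Of the 9 MCM and licensing genes with an E2F site, Cdc6 (above background in WT alone), Mcm5, Gins3, Mcm6, Mcm3, Cdt1 and Mcm7 were between 1.92 and 0.51 lower on the log2 scale at 12 weeks, Orc3 was at -0.05 and Mcm8 at 0.47. A match is a description of letters in this window.

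Genes of endoplasmic reticulum stress were higher in AIM-KO for 30 of 35 members, with a median of 0.24. At least 2-fold higher were 2 and none lower (5.7% apart), against 7.14% of all genes compared. The AIM-KO array was above the other 6 for 4 of the 35, against 20.4% of all genes. The WT array was below the other 6 for 9 of the 35, against 15.1% of all genes. Medians at 0, 6 and 20 weeks were -0.09, -0.37 and 0.12. The 2 were Chac1, which breaks down glutathione, and the pseudokinase Trib3, both also on the ATF4 list. Chac1 had 830 in AIM-KO and 208 in WT (1.99), against 280 to 706 with a median of 511 on the other 6 arrays, so the AIM-KO array was the highest of the 8 and the WT array the lowest. Trib3 had 1381 in AIM-KO and 576 in WT (1.26), inside the range of 502 to 1430. Creb3l2, a transcription factor of the secretory pathway, had 1742 in AIM-KO and 893 in WT (0.96), and Herpud1, of the degradation pathway, 20803 and 12457 (0.74). The chaperone Hspa5 had 20241 in AIM-KO and 14922 in WT (0.44), and the chaperone-like Creld2 6773 and 4499 (0.59), both inside the range of the other arrays. Amino acid response genes of ATF4 had a median of 0.30, 18 of 24 higher. The chaperone genes turn on through the ER stress element, CCAAT and CCACG held 9 bases apart, whose letters are in capitals in 2 promoters of this group.
Hspa5, chr2:34771840-34772139, plus strand: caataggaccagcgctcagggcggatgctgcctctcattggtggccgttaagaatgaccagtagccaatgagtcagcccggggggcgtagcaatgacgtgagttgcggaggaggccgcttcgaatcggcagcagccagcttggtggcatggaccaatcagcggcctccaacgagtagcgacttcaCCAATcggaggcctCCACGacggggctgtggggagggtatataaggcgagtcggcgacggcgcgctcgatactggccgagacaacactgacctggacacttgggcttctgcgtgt
Creld2, chr15:88819396-88819695, plus strand: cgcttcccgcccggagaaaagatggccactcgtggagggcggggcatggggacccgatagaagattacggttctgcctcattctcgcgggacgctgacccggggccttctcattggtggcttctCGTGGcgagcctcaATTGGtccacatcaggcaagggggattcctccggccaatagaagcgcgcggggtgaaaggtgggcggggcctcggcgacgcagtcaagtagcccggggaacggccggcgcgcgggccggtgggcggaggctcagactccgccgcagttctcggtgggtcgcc

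The element was in the promoter of 10 of 31 genes of this list with a promoter in the table, and of 0.137% of all 27025 genes. Of these 10, 9 were higher in AIM-KO, between 0.03 for Dnajc3 and 0.59 for Creld2, and Ero1b was at -0.05.

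Targets of the glucocorticoid receptor, a list written after the values were seen, had a median of 0.63, with 18 of 27 higher, 9 at least 2-fold higher and 1 at least 2-fold lower. At 0, 6 and 20 weeks the median was -0.35, -0.03 and -0.36. Fkbp5, a co-chaperone that restrains the receptor, had 293 in AIM-KO and 66.9 in WT (2.13), against 42 to 157 with a median of 119 elsewhere. Its other 2 probes gave 1.09 and 1.01. Tsc22d3, the leucine zipper protein GILZ, had 3073 in AIM-KO and 1170 in WT (1.39), with 1234 to 2882 elsewhere, so AIM-KO was highest and WT lowest of the 8. Errfi1, a brake on the EGF receptor, had 33916 in AIM-KO and 14844 in WT (1.19), and here the WT array was the one outside the range of 25371 to 48435. Lpin1, a phosphatidic acid phosphatase, had 6830 in AIM-KO and 2658 in WT (1.36), and its further 3 probes gave 1.74 to 1.85. Angptl4, an inhibitor of lipoprotein lipase, had 68857 in AIM-KO and 28606 in WT (1.27), against 9294 to 40379. The metallothioneins Mt2 and Mt1 were 1.72 and 1.11 higher, and ran from 2.19 and 2.74 higher on chow to 1.56 and 1.04 lower at 20 weeks on the same scale.

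Cish and Socs2, feedback inhibitors that STAT5 turns on, were higher, and Bcl6, a repressor that STAT5 turns off, was lower. Cish had 1624 in AIM-KO and 486 in WT (1.74), Socs2 451 and 215 (1.07), and Bcl6 1069 and 3419 (-1.68). All of these levels at 12 weeks lay within the range of the other 6 arrays. At 6 weeks Cish and Socs2 differed by -1.31 and -0.69 and Bcl6 by -1.95. The list as a whole had a median of -0.02. Igfbp2 and Igfals, binding proteins of the IGF system, had 9657 in AIM-KO and 18096 in WT and 997 and 1448, and both livers of 12 weeks were below every other array. Immediate early genes were higher for 24 of 29 members, with a median of 0.47 and 5 at least 2-fold: Ccn2 (1.44), Klf6 (1.23), Egr2 (1.23), Gadd45b (1.07) and Myc (1.03). Their median at 20 weeks was -1.36.

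**Figure D4:**
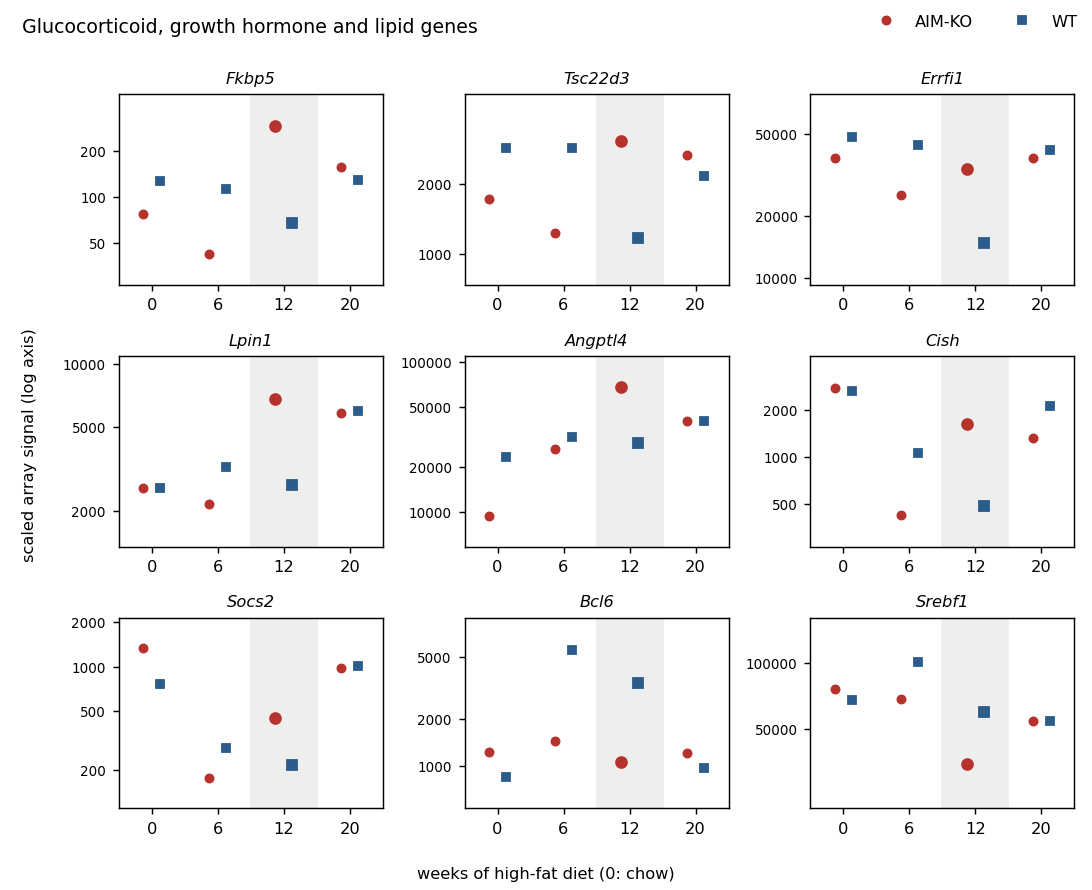
Scaled signal (log axis) of 9 genes against weeks of high-fat diet, AIM-KO as red circles left of WT as blue squares, 1 array per point, 12 weeks shaded. Fkbp5, Tsc22d3, Lpin1 and Angptl4 are highest in AIM-KO at 12 weeks, Errfi1 is lowest in WT at 12 weeks, and Srebf1 is lowest in AIM-KO at 12 weeks.

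Of 28 lipogenic genes 19 were lower in AIM-KO, with a median of -0.21, 2 at least 2-fold higher and 1 at least 2-fold lower. Of 25 cholesterol synthesis genes 21 were lower, with a median of -0.30 and none 2-fold. Srebf1, the transcription factor that drives fatty acid synthesis, had 34461 in AIM-KO and 59799 in WT (-0.80), below the 54233 to 100690 of the other 6 arrays. Thrsp had 39515 in AIM-KO and 75603 in WT (-0.94), the fatty acid synthase gene Fasn 147650 and 208169 (-0.50), and Acly, which makes its substrate, 1743 and 2613 (-0.58). For Fasn and Acly the WT array of 12 weeks was the highest of the 8. The lipase-like Pnpla3 had 140 in AIM-KO and 387 in WT (-1.47). Lipid droplet and triglyceride storage genes were higher for 17 and lower for 17, with a median of -0.00 and 2 at least 2-fold apart in each direction. The lowest was G0s2, the inhibitor of the lipase ATGL, with 4671 in AIM-KO and 13153 in WT (-1.49). The highest was Plin4, a coat protein of lipid droplets, with 10318 in AIM-KO and 3762 in WT (1.46), against 539 to 4273 elsewhere. The desaturase Scd2 had 1920 in AIM-KO and 953 in WT (1.01). Scd1, the main desaturase of liver, differed by -0.18. In cholesterol synthesis Mvd had 1959 in AIM-KO and 3062 in WT (-0.64) and Insig1 921 and 1372 (-0.57).

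Among other metabolic lists, genes of glycolysis (12 higher and 15 lower, median -0.01) and of gluconeogenesis and the fasting response (10 and 11, -0.01) had members on both sides. At least 2-fold higher were 1 of 27 glycolysis genes and 4 of 21 gluconeogenesis and fasting response genes, against 3.9% of all genes compared. The largest of the 4 was Fkbp5 (2.13), described above among the glucocorticoid receptor targets. A further 4 lists had mostly lower members. PPAR alpha and fatty acid oxidation genes were lower for 35 of 39 members (median -0.16), conjugation enzymes of phase II for 26 of 29 (-0.26), cytochrome P450 genes for 28 of 34 (-0.20) and genes of bile acid synthesis for 20 of 23 (-0.15). Among the genes of those 4 lists, Acot3, a peroxisomal thioesterase, was at least 2-fold lower (74.9 in AIM-KO and 320 in WT, -2.09). So was Sult5a1 (-1.38), and Angptl4 was at least 2-fold higher. Cyp7a1, the rate-limiting enzyme of bile acid synthesis, had 545 in AIM-KO and 799 in WT (-0.55). Hepatocyte genes had a median of -0.05, ribosomal proteins of -0.01, respiratory chain genes of -0.10 and complement components of 0.06, with no member at least 2-fold apart. Hepatocyte genes and respiratory chain genes were also mostly lower, for 15 of 19 and 28 of 37 members. Hamp2, which like Hamp encodes a hepcidin, had 4878 in AIM-KO and 14080 in WT (-1.53), and Hamp itself 10527 and 19412 (-0.88).

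Steroid dehydrogenases of the Hsd3b family, grouped after the values were seen, were lower for all 6 members above background, with a median of -1.40 (-0.80 with the normexp correction). Of the 6, 4 were at least 2-fold lower, against 3.23% of all genes compared. The family was lower at the other times too, with medians of -1.05, -0.94 and -0.51 at 0, 6 and 20 weeks. Hsd3b7, on chromosome 7, was at -0.06, and the other 5 are on chromosome 3. These genes are close paralogs, and probes may share signal. Hsd3b6 had 34.7 in AIM-KO and 149 in WT (-2.10), Hsd3b3 127 and 437 (-1.78) and Hsd3b2 1005 and 2562 (-1.35). For these 3 the AIM-KO array of 12 weeks was the lowest of the 8. Hsd3b4 and Hsd3b5, 2 forms of male mouse liver, were at 37.7 and 7.82 in AIM-KO and at 48.9 and 8.71 in WT at 12 weeks, while WT on chow had 16667 and 16559. Of the 277 genes, 18 lie on chromosome 3, 2.87% of the genes there that were above background on both arrays, against 2.08% elsewhere.

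Beyond the lists, and among genes above background on both arrays, the largest difference upward belonged to Slc6a8, the creatine transporter, with 847 in AIM-KO and 85.4 in WT (3.31). On the other 6 arrays it stayed between 215 and 398, so both 12-week livers were outside it, on opposite sides. Gipc2, a PDZ scaffold protein, had 303 in AIM-KO and 53.6 in WT (2.50), against 6.3 to 46, and the cytokine Il17d 142 and 33.7 (2.08, and 0.95 with normexp), against 22 to 40.2. Trpc2, a channel subunit known from pheromone sensing, had 397 in AIM-KO and 62.7 in WT (2.66), but none of its 4 further probes was higher in AIM-KO, and 3 of these were not well above background in either liver. The calcium-binding protein S100a11 had 2917 in AIM-KO and 1273 in WT (1.20), and both were above the other arrays, which ended at 529. Among lower genes, Spata33 had 35.1 in AIM-KO and 277 in WT (-2.98), and the T cell factor Tcf7 42 and 161 (-1.94), against 33.3 to 41.5 elsewhere. Celsr3, a cadherin of cell polarity, and the receptor transporter Rtp2 had 32.7 and 35.5 in AIM-KO and 193 and 185 in WT, and were not well above background on any other array. For Btbd3 (-2.28) a further probe gave 3.62, so its direction depends on the probe.

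The largest lower bounds were of genes seen on 1 array of the series. D7Ertd413e (398 in AIM-KO) was at least 12.7-fold, Tmc3 (390) at least 12.5-fold and Sfrp1 (379) at least 12.1-fold higher, and in the other direction Abi3bp (360 in WT) was at least 12-fold and Pgbd1 (312 in WT) at least 10.4-fold lower. None of these 5 was well above background on any of the other 6 arrays. The further probes of Tmc3, Sfrp1 and Abi3bp were not well above background in either liver.

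Genes above background on both arrays were also set against the other 6 arrays, with no test. Among the 172 higher genes above background on both arrays, 113 had AIM-KO above the other 6 and 36 had WT above them. In 44 of the 172 both arrays lay outside the other 6, and in 46 neither did. Of the 172, 54 were also at least 2-fold higher at another time and 48 at least 2-fold lower at another time. For the 105 lower genes, 60 had WT above the other 6 and 33 had AIM-KO below them, with both arrays outside in 39 and neither in 23. Of the 105, 46 were also at least 2-fold lower at another time and 24 higher. Over all 14349 genes compared, AIM-KO was above the other 6 for 20.4% and below them for 20.5%, and WT was above them for 15.5%. At another time 8.2% of all genes were at least 2-fold apart in their 12-week direction and 6.5% in the opposite one. Genes chosen for a 2-fold difference on the same 2 arrays favour such positions, so the counts are partly fixed by that choice.

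The genotype difference at 12 weeks was also set against its mean at the other 3 times with limma, where the spread across weeks stands in for replicates and 2 residual degrees of freedom remain. None of 14974 genes passed a Benjamini-Hochberg adjusted p of 0.05 (0%), and 488 had an unadjusted p under 0.05. The smallest adjusted p in this limma fit was 0.833. With so few degrees of freedom the fit called no gene in simulated data with changes built in either, so the count of 0 does not show that 12 weeks was like the other times. The 5 smallest p-values belonged to Bcl11b (difference 3.58 ± 0.28 SE), AK042676, AK035497, Tex19.2 and AK088546. Bcl11b, a transcription factor of T cells, had 224 in AIM-KO and 22.6 in WT at 12 weeks, above background in AIM-KO alone and at least 7.16-fold higher, and its second probe was not well above background in either liver.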

How the data were processed

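Liver RNA was hybridised to 1-colour Agilent arrays, and the deposited scanner files hold the intensity of each spot, made with Feature Extraction 9.5 per the submitters' processing notes. The deposited log2 value table of the same arrays was used as an alternative. From the processed intensity, log2 values were taken after division by each array's 75th percentile. Control and outlier spots were dropped, repeat spots were combined by their mean, and a gene took its probe with the highest mean over the 8 arrays. Probes were named through RefSeq where an accession matched (24371 of 41174); others kept the file's name. A gene seen on 1 array has a lower bound, taken against the dim array's own signal or its lowest signal well above background, whichever is higher. No test was possible for 1 array against 1. The difference between weeks was fitted with limma. On simulated data the fit recovered the sizes of built-in changes but called none of them. The comparison, lists and genes were chosen with earlier results of these data known; 6 lists (S phase, G2 and M phase, MCM and licensing, glucocorticoid, metallothionein, Hsd3b) were written after the values were seen. Named genes are list members and the largest differences. Some genes are not reported here.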

Additional observations from a re-analysis of the deposited data

Results flagged for a closer look

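Several list medians lay on opposite sides of 0 at 12 weeks and at another time. These differences were not tested, and each pair is 1 AIM-KO array and 1 WT array. Against 20 weeks, lipid-associated macrophage genes had medians of 0.49 and -0.54, bile duct and progenitor markers 1.23 and -0.56, carcinoma and fetal liver genes 0.48 and -0.40, chemokines and cytokines 0.37 and -0.48, immediate early genes 0.47 and -1.36, and cholesterol synthesis genes -0.30 and 0.28, the 12-week value first. Glucocorticoid receptor targets had 0.63 at 12 weeks, -0.36 at 20 weeks and -0.35 on chow. Against 6 weeks, T and NK cell markers had 0.48 and -0.31, and female-biased liver genes -0.29 and 0.43. Some members entered through the AIM-KO array of 12 weeks alone. Over members above background on both 12-week arrays, T and NK cell markers had a median of 0.21, under the 0.25 needed for a flag. Bile duct and progenitor markers had 0.92 over such members, and 0.44 with no filter on dim probes. The 20-week pair lacks Y-linked signal, and its part in these differences was not tested.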

How the results depend on the processing

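No paired analysis was possible because each label gives replicate 1 alone, apart from the limma fit, which takes the difference within each week. The counts of 560 higher and 464 lower genes became 192 and 151 with normexp, 172 and 105 among genes above background on both arrays, 1021 and 958 with no filter, and 1075 and 940 at 1.5-fold; at 3-fold 353 were higher. The 383 higher genes with AIM-KO above the other 6 arrays became 155, 113 and 611, and the 332 lower genes with WT above them 123, 60 and 539, with normexp, both arrays above background and no filter; the filter on dim probes partly fixes these counts. Higher genes were 54.7% of calls, and 62.1% among genes above background on both arrays. Of 406 list values under alternatives, 396 were counted as little moved, 10 as moved and none as reversed. Little moved means a shift smaller than the spread of the list's own medians over the other weeks. T and NK cell markers were counted so, although 0.48 became 0.20 with normexp and 0.21 among genes above background on both arrays. Only medians of at least 0.25 in size could count as reversed. Smaller ones could change sign, as Kupffer cell and macrophage markers did with normexp (0.0356 to -0.0011). Btbd3 reversed to 0.67 with the mean of all its probes. With normexp, whose offset raises low signals, dim genes have smaller differences. The limma count was 0 under every alternative run, which says nothing about stability, since 2 residual degrees of freedom leave the fit too little power.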

Other observations

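Stellate cell and fibrosis genes, which describe scar formation, were higher in AIM-KO at 12 weeks for 25 of 32 members, with a median of 0.26. At least 2-fold apart were 1 higher and 1 lower (6.25%), against 7.14% of all genes compared. Medians were -0.03, 0.37 and -0.23 at 0, 6 and 20 weeks. A list of chromosome 3 genes around Cd5l, chosen with earlier results known, had a median of -0.00 over 35 members. In it 2 genes were at least 2-fold higher, Asic5 and Wars2, and 7 at least 2-fold lower, among them Cd5l, Hsd3b1, Hsd3b2, Hsd3b3, Hsd3b6 and Sh2d2a (-1.16).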
